A study of Mus musculus with 4 samples.

Results

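The expression of 9 genes of the dual-specificity phosphatase family was followed in mouse regulatory T (Treg) cells after loss of Foxp3, the forkhead factor on which their suppressive identity depends. The genes were Dusp1, Dusp2, Dusp4, Dusp5, Dusp6, Dusp7, Dusp10, Dusp11 and Dusp16, and every probe set whose platform symbol was exactly 1 of these was taken, which gave 14 of the 34945 probe sets with 1 gene symbol (9 of 18193 genes). Deleted cells carried a loxP-flanked Foxp3 gene and had been treated with the construct HR-MMPCreGFP, which delivers Cre recombinase (2 arrays). Wild-type cells had an unaltered Foxp3 gene and received the same construct (2 arrays). Both were CD4+ Ly5.2+ T cells, both were selected on YFP as the sign of exposure to Cre, and both were recovered 6 weeks after adoptive transfer. The design asks which transcripts of mature Treg cells differ once Foxp3 is ablated. The labels do not say whether the 2 samples of a group came from separate animals. The p-values therefore set each difference against a spread between samples that may be technical only.

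Mitogen-activated protein (MAP) kinases carry signals from the T cell receptor and cytokine receptors to the nucleus, and the main branches end in ERK, JNK and p38. These kinases are active when a threonine and a tyrosine in their activation loop are both phosphorylated, and the MAP kinase phosphatases switch them off by removing both phosphates. Several of the phosphatase genes are themselves induced by the kinases, which makes them part of a negative feedback and a readout of recent signalling. The family divides into nuclear inducible enzymes (Dusp1, Dusp2, Dusp4, Dusp5), cytosolic enzymes that prefer ERK (Dusp6, Dusp7) and enzymes that prefer JNK and p38 (Dusp10, Dusp16). Dusp11 belongs to the family by its catalytic fold, but it is known as a phosphatase of RNA 5′ ends and not of MAP kinases.

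Values are the authors' GCRMA intensities on a linear scale, and differences are log2, deleted minus wild type. Of the 14 probe sets, 11 had a mean log2 intensity of at least 4 over the 4 arrays and were tested among 13999 such probe sets, and they covered all 9 genes. The other 3, 1 each of Dusp7, Dusp10 and Dusp16, lay near the floor of the arrays (a mean log2 intensity below 4), where GCRMA compresses differences. Foxp3 itself had 437.8 and 429.8 in the deleted arrays and 2694 and 2404 in the wild-type arrays, so the labels and the targeted gene go the same way on all 4 arrays, although where its probe set lies relative to the loxP sites was not known here. The T cell genes Cd3d, Cd3e, Cd3g, Cd4, Cd2 and Cd5 were all above the floor on average, while both CD8 genes were below it. Summed intensity of 8 myeloid markers was 9758 in deleted replicate 1, 2958 in deleted replicate 2, and 2323 and 2439 in wild-type cells, so deleted replicate 1 stood apart from the other arrays.

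Dusp4 had the largest difference of the family. It read 19.4 and 16.5 in the deleted arrays, against 206.1 and 140.9 in the wild-type arrays. Both deleted arrays were close to the floor and the groups lay far apart, with a gap between the 2 arrays of a group of 0.23 (deleted) and 0.55 (wild type) on the log2 scale. The mean was 17.9 ± 2.06 in deleted cells and 173.5 ± 46.1 in wild-type cells (intensity, SD, n = 2 per group). By the means of the log2 values, the deleted signal, close to the floor, was 10.5% of the wild-type signal. The log2 difference was -3.25 (SE 0.38, 95% interval -4.22 to -2.29), or 9.54-fold lower, with an adjusted p = 0.113 in limma. It therefore missed the threshold of 0.05, as did every other probe set: limma called 0 of 13999 after Benjamini-Hochberg adjustment (0.0%), against 1338 with an unadjusted p under 0.05 (9.56%). Only 28 of the 13999 tested probe sets (0.2%), that of Dusp4 included, were lower by as much.

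No single array carried the Dusp4 difference. Leaving out 1 array at a time gave values between -3.53 and -2.98, and adding 16 to every intensity before the log2 step gave -2.46. Since the deleted arrays lay close to the floor, the size of the fold change depends on how that floor is treated, whereas the direction was the same under each alternative that kept this probe set.

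**Figure D1:**
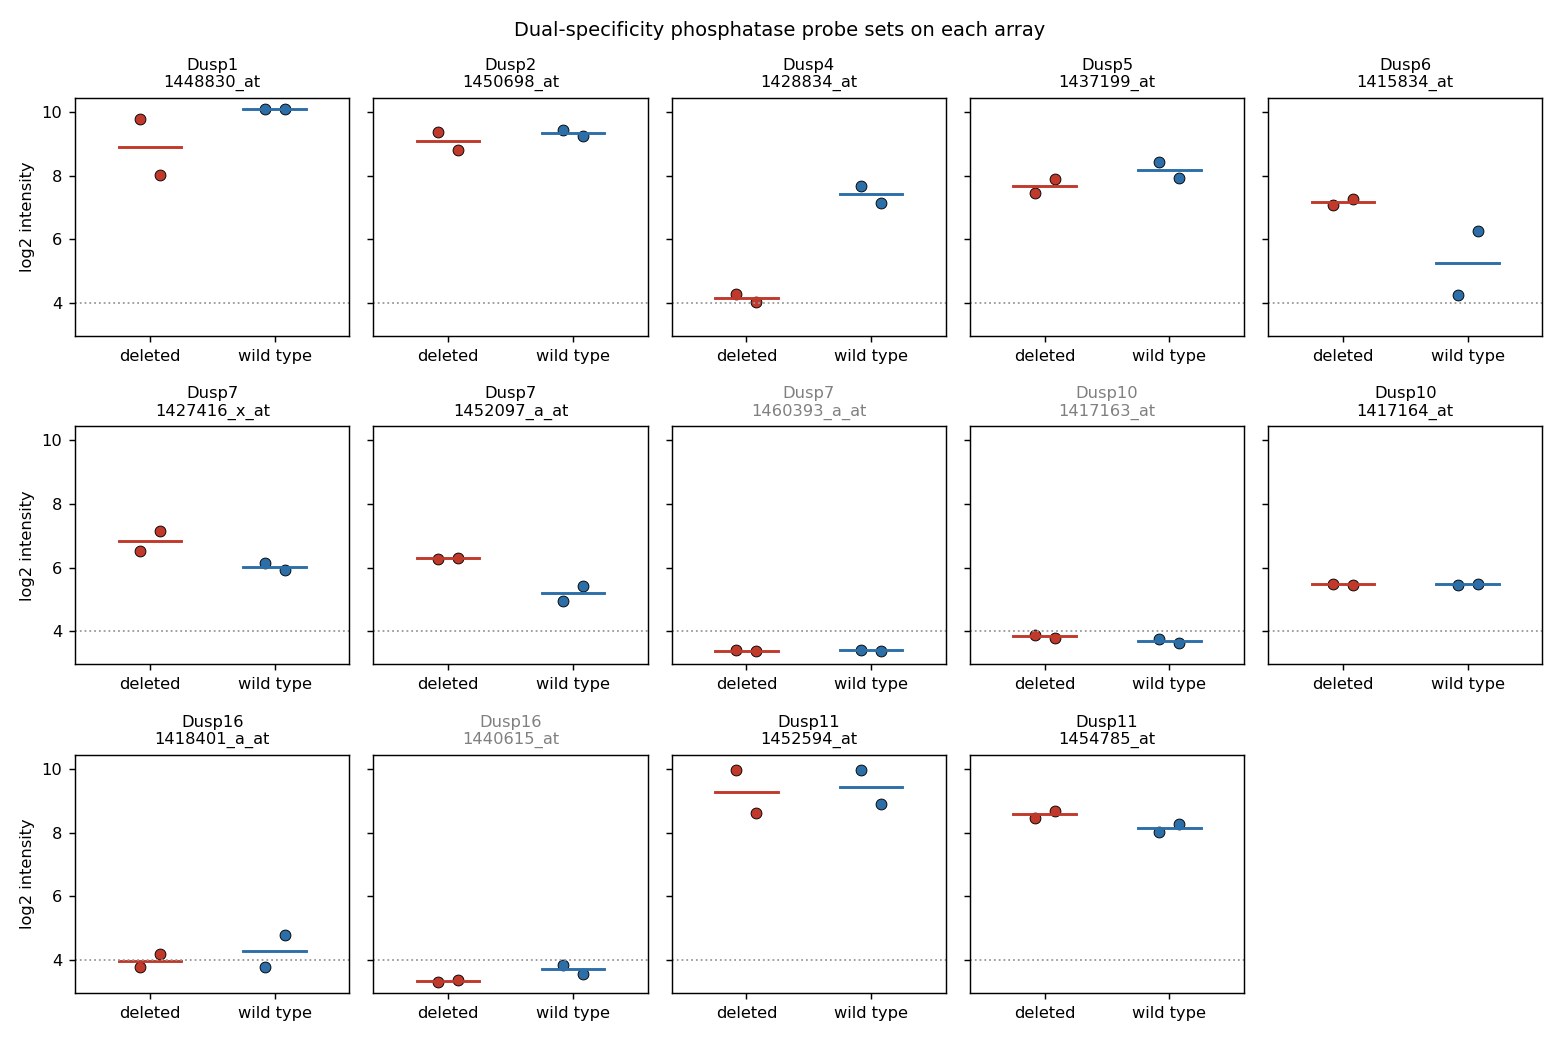
Log2 intensity of all 14 phosphatase probe sets, with 1 panel per probe set, the 2 deleted arrays in red and the 2 wild-type arrays in blue (replicate 1 left of replicate 2). Short bars are group means, the dotted line marks a log2 intensity of 4, and grey titles mark the 3 probe sets that were not tested. Dusp4 sits near the line in both deleted arrays only, Dusp1 has 1 low deleted array, and Dusp6 has 1 low wild-type array.

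The other nuclear enzymes had smaller or less even differences. Dusp1, an immediate early phosphatase of p38, JNK and ERK, read 878.6 and 257.9 in the deleted arrays, against 1095 and 1098 in the wild-type arrays. The wild-type arrays were nearly equal and deleted replicate 2 alone was far below the rest, although the groups did not overlap. The log2 difference of Dusp1 was -1.20 (SE 0.62, 95% interval -2.80 to 0.39, adjusted p = 0.643 in limma). The 2 deleted arrays differed from each other by 1.77, more than the groups did, and 2.14% of tested probe sets had a gap between the deleted arrays at least as wide. Without deleted replicate 2 the difference of Dusp1 was -0.32, and without deleted replicate 1 it was -2.09, so its size rests on which deleted array is used.

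Fos, another immediate early gene and 1 of the ERK targets listed below, was chosen for comparison after its values were seen. It read 4276 and 589.1 in the deleted arrays, against 2332 and 1192 in the wild-type arrays. Deleted replicate 2 was again the lowest array, and the difference between the groups was -0.07 (adjusted p = 0.994 in limma). The ERK targets as a group did not share this order, and 5 of 12 tested targets read lower in deleted replicate 2 than in deleted replicate 1 (54.1% of all tested probe sets did).

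The Dusp1 promoter is shown because it holds a site of the kind through which cyclic AMP and stress signals induce immediate early genes. Promoter sequences are the 250 bases before the RefSeq gene start in GRCm38.p6, 5′ to 3′, and capitals mark matches to any of 6 motifs searched on both strands. The motifs were the forkhead core GTAAACA, the cyclic AMP response element TGACGTCA, the ETS site CCGGAAG, the AP-1 site TGANTCA, the NFAT core GGAAAA and the CArG box. The Dusp1 promoter lies at chr17:26508473-26508722 on the minus strand and holds 1 full cyclic AMP response element, which starts 143 bases before the gene start and which 1.55% of 32851 promoters of this length hold.
Dusp1: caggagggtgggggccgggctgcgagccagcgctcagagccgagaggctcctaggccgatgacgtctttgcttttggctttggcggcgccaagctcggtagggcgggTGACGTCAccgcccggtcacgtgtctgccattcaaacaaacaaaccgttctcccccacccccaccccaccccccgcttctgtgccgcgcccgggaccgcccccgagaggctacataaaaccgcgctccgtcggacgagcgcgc

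Dusp2, known as PAC-1 and induced in activated lymphocytes, read 664.1 and 445.2 in the deleted arrays, against 688.7 and 608.2 in wild-type cells. The groups overlapped, and the log2 difference was -0.25 (SE 0.35, 95% interval -1.14 to 0.64, adjusted p = 0.858 in limma). Dusp5, a nuclear phosphatase that is selective for ERK, read 176.9 and 236.4 in the deleted arrays, against 345.9 and 243.2 in wild-type cells. The groups did not overlap but deleted replicate 2 and wild-type replicate 2 nearly met, and the log2 difference was -0.50 (SE 0.38, 95% interval -1.49 to 0.48, adjusted p = 0.744 in limma). The difference of Dusp5 was -0.25 without wild-type replicate 1, -0.29 without deleted replicate 1 and -0.76 without wild-type replicate 2. All 4 nuclear genes had a lower mean in deleted cells, where 48.1% of all tested genes had a higher one. For Dusp2 the sign turned without deleted replicate 2 (0.04), and only Dusp4 had a 95% interval that left out 0.

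The Dusp5 promoter is printed since it carries a pair of adjoining CArG boxes, the element bound by serum response factor, which acts below ERK. It lies at chr19:53528895-53529144 on the plus strand, and the boxes start 82 and 72 bases before the gene start. Of the 32851 promoters 1.47% hold at least 1 such box.
Dusp5: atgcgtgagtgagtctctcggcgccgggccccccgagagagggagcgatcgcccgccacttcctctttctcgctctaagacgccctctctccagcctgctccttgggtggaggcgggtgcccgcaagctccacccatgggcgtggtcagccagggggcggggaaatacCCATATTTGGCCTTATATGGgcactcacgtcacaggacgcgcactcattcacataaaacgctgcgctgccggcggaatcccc

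The cytosolic ERK phosphatases Dusp6 and Dusp7 read higher in both deleted arrays than in either wild-type array. Dusp6, also known as MKP-3 and a feedback target of ERK signalling, read 135.1 and 152.3 in the deleted arrays, against 18.9 and 77.4 in wild-type cells. The deleted arrays were close to each other and the wild-type arrays were 4.09-fold apart, with wild-type replicate 1 near the floor. The mean was 143.7 ± 12.2 in deleted cells and 48.1 ± 41.3 in wild-type cells (intensity, SD, n = 2 per group). The log2 difference of Dusp6 was 1.91 (SE 0.72, 95% interval 0.06 to 3.76), or 3.75-fold higher, with an adjusted p = 0.515 in limma, and 1.43% of tested probe sets were higher by as much. The gap between the wild-type arrays was 2.03, wider than the difference between the groups, and 2.74% of tested probe sets had a wild-type gap at least as wide. Without wild-type replicate 1 Dusp6 was higher by 0.89, and without wild-type replicate 2 by 2.92. With 16 added to every intensity it was higher by 1.48, so the size of this fold change also depends on the floor.

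Dusp7 had 2 tested probe sets, which are not independent measurements since they report the same gene in the same RNA. The set 1452097_a_at read 77.3 and 79.4 in the deleted arrays, against 31.3 and 42.8 in wild-type cells. Here the arrays within each group were close, and the log2 difference was 1.10 (SE 0.35, 95% interval 0.19 to 2.01, adjusted p = 0.438 in limma), or 2.14-fold higher. The set 1427416_x_at, whose suffix marks probes that may also bind other transcripts, read 92.3 and 143.6 in the deleted arrays, against 71.5 and 60.5 in wild-type cells. Its groups did not overlap either, and the log2 difference was 0.81 (SE 0.40, 95% interval -0.21 to 1.83, adjusted p = 0.624 in limma). Leaving out single arrays left both sets above 0, from 0.87 to 1.32 for the first and from 0.49 (without deleted replicate 2) to 1.13 for the second. With 16 added to every intensity the first was at 0.84 and the second at 0.68. The remaining Dusp7 set, 1460393_a_at, stayed between 10.4 and 10.8 on all 4 arrays, near the floor, and gives no information on direction.

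The promoters of these 2 genes are set side by side because both read higher in deleted cells. That of Dusp6 lies at chr10:99262981-99263230 and that of Dusp7 at chr9:106368382-106368631, both on the plus strand. Neither held a match to the 6 motifs, so no letters are in capitals, and they differed in base composition, with 56.4% G and C in Dusp6 and 77.2% in Dusp7 (median of all promoters 52.4%). Across the 8 phosphatase genes with a promoter in the RefSeq table, 6 held no match. The share of all promoters without any match was not counted. The forkhead core, which 3.17% of all promoters hold, was in 0 of the 8. At that share, 0 of 8 carries no information on the family. Dusp4, the member with the largest difference, had no entry in the RefSeq table, so its promoter was not searched.
Dusp6: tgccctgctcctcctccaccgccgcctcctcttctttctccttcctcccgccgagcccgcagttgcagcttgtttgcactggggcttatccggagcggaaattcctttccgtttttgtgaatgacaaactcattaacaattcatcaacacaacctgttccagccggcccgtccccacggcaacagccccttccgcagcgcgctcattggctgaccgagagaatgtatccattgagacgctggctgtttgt
Dusp7: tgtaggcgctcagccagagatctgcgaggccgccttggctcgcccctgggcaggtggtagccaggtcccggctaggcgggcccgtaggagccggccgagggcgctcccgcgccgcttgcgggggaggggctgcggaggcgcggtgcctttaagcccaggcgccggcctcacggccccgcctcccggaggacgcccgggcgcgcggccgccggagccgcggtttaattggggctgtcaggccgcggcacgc

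Dusp10, or MKP-5, which acts on JNK and p38, was the most even of the genes. Its tested probe set read 45.3 and 44.1 in the deleted arrays, against 44.4 and 45.0 in wild-type cells. The log2 difference was 0.00 (SE 0.32), and its 95% interval of -0.82 to 0.82 leaves room for a change of up to 0.82 either way. The second Dusp10 set, near the floor and not tested, read 14.9 and 13.8 in the deleted arrays, against 13.6 and 12.5 in wild-type cells. Dusp16, or MKP-7, which prefers JNK, was close to the floor on both of its probe sets. The tested one read 13.8 and 18.0 in the deleted arrays, against 13.8 and 27.2 in wild-type cells, with a log2 difference of -0.30 (SE 0.43, 95% interval -1.40 to 0.80, adjusted p = 0.87 in limma). Its deleted mean was 3.98 on the log2 scale, below the limit of 4, so it was tested only through its wild-type values. The groups overlapped, only wild-type replicate 2 stood above the others, and without that array the difference was 0.19. The other Dusp16 set read 9.87 and 10.4 in the deleted arrays, against 14.5 and 11.8 in wild-type cells.

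The RNA phosphatase gene Dusp11 gave readings of opposite sign on its 2 probe sets. The set 1452594_at read 992.9 and 389.3 in the deleted arrays, against 1008 and 476.7 in wild-type cells. Replicate 1 was the higher array in both groups, the groups overlapped, and the log2 difference was -0.16 (SE 0.61, 95% interval -1.73 to 1.42, adjusted p = 0.959 in limma). The set 1454785_at read 354.2 and 408.3 in the deleted arrays, against 259.7 and 305.2 in wild-type cells. Here replicate 2 was the higher array in both groups and the groups did not overlap, with a log2 difference of 0.43 (SE 0.33, 95% interval -0.41 to 1.27, adjusted p = 0.743 in limma). The sign of 1452594_at also turned when deleted replicate 2 (0.52) or wild-type replicate 1 (0.38) was left out.

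**Figure D2:**
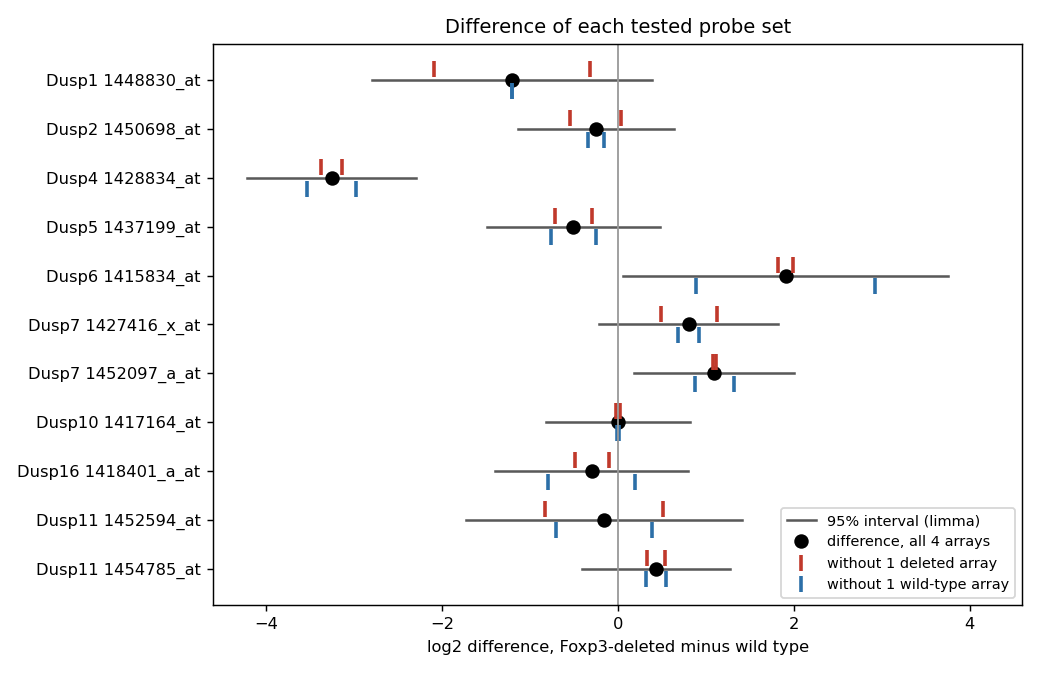
Log2 difference (deleted minus wild type) of the 11 tested phosphatase probe sets, with black points for all 4 arrays, grey lines for the limma 95% interval, and red and blue ticks for the values without 1 deleted or 1 wild-type array. Dusp4 at -3.25 lies farthest from 0 and its ticks stay close to the point, whereas the ticks of Dusp1 and Dusp6 spread widely.

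Counted over the family, 7 of 11 tested probe sets had groups that did not overlap (4 higher and 3 lower in deleted cells), where 39.9% of all tested probe sets did (19.0% higher and 20.8% lower). With a log2 difference of at least 1 in addition, 4 of 11 passed (2 higher and 2 lower), where 11.1% of all tested probe sets did (6.67% higher and 4.44% lower). These 4 were Dusp4 and Dusp1, which were lower, and Dusp6 and 1 set of Dusp7, which were higher. With 16 added to every intensity the count was 3, since this Dusp7 set (0.84) was then below 1. Without wild-type replicate 1 the count was 2, since Dusp6 (0.89) and Dusp7 (0.87) were then below 1, and without deleted replicate 1 it was 5. With groups of 2 arrays an exact permutation test of a single gene cannot go below p = 0.333, so these counts describe the arrays. The median difference was -0.16 over the 11 probe sets and 0.01 over all tested probe sets, and the median size of a difference was 0.50 and 0.36. The outermost members were Dusp4 and Dusp1 on the lower side and Dusp6 and Dusp7 on the higher side.

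**Figure D3:**
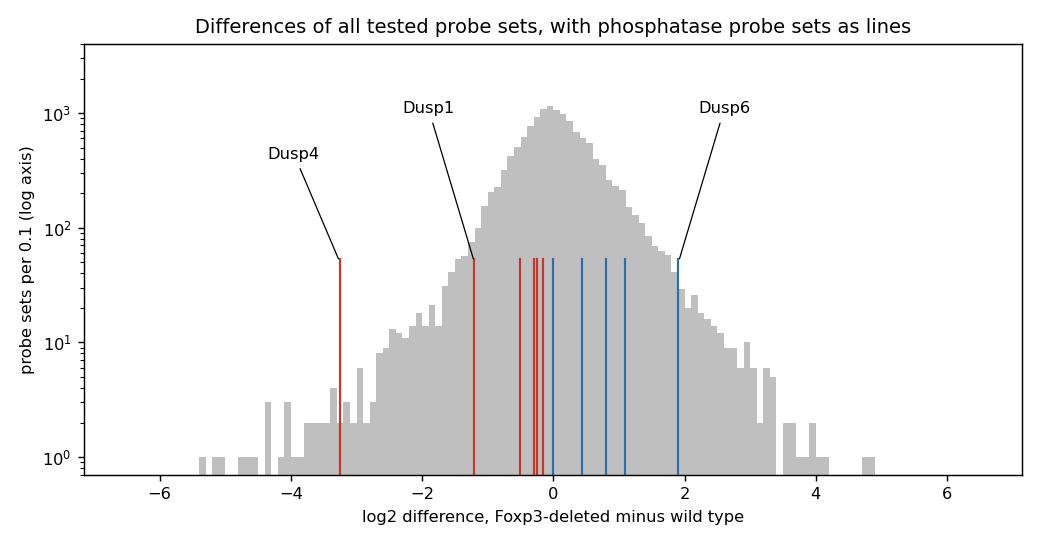
Number of tested probe sets (log axis) by log2 difference, deleted minus wild type, in steps of 0.1 (grey), with the 11 phosphatase probe sets as lines (red below 0, blue above). Dusp4 lies in the sparse lower tail, where 0.2% of probe sets are as low, and Dusp6 in the upper flank, where 1.43% are as high.

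The genes whose pattern over the 4 arrays was most like that of Dusp4 were searched among 8628 other genes by the distance between log2 values centred on each gene's mean. The nearest were Scin (distance 0.29), which encodes the actin-severing protein scinderin, Nrp1 (0.36), which encodes the Treg surface protein neuropilin-1, and Ncmap (0.36). Scin read 10.7 and 9.18 in the deleted arrays, against 98.0 and 61.9 in the wild-type arrays. Both deleted arrays of Scin lay below the log2 limit of 4, so it was tested only through its wild-type values. Its difference was -2.98, and -2.28 with log2 values below 4 raised to 4. Nrp1 read 290.2 and 277.7 in the deleted arrays, against 2476 and 1930 in the wild-type arrays. For Dusp6 the nearest were Pde4dip (0.26), Tspan14 (0.27), a tetraspanin gene, and Septin8 (0.31). Tspan14 read 258.5 and 225.6 in the deleted arrays, against 30.0 and 123.9 in wild-type cells, with the same low wild-type replicate 1 as Dusp6. Over 4 arrays such likeness describes little beyond the difference between the groups.

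Genes around the phosphatases in the MAP kinase pathways mostly showed small differences, and 0 of 67 tested genes in the 7 lists passed an adjusted p of 0.05 in limma, with 7 at an unadjusted p under 0.05 (9.71% of all 8629 tested genes). Over all tested genes 48.1% had a higher mean in deleted cells. Among the ERK cascade kinases, 3 of 6 tested genes had a higher mean and 3 a lower one, with a median log2 difference of -0.07 (-0.02 over all genes). Their range was -0.83, for the MAP kinase kinase kinase gene Map3k8, to 0.24, for the scaffold gene Ksr1. Map3k8 was at -0.34 without deleted replicate 2, at -1.32 without deleted replicate 1 and at -0.55 with 16 added to every intensity. The sign of Ksr1 turned without deleted replicate 2 (-0.25) or wild-type replicate 2 (-0.49). Of the JNK and p38 cascade kinases 7 of 13 were higher, with a median of 0.02. The JNK gene Mapk8 was at -0.42, but ranged from -1.195 to 0.27 over its 3 tested probe sets. Of the p38 genes, Mapk12 and Mapk13 were not bright enough to test, and Mapk11 and Mapk14 lay at the ends of the list. Mapk11 (p38 beta) read 30.4 and 30.2 in the deleted arrays, against 97.6 and 65.4 in wild-type cells, a difference of -1.40 (SE 0.37, adjusted p = 0.371 in limma). Mapk14 (p38 alpha) read 793.0 and 606.6 in the deleted arrays, against 244.2 and 446.8 in wild-type cells, a difference of 1.07 (SE 0.42, adjusted p = 0.529 in limma), its 3 tested probe sets ranged from 0.37 to 1.07, and without wild-type replicate 1 the difference was 0.63.

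Upstream and downstream genes gave a similar picture. Of 8 tested RAS regulators 6 had a higher mean, with a median of 0.05, and Rasa3, a GTPase-activating protein that turns RAS-family GTPases off, was farthest out. It read 714.6 and 683.1 in the deleted arrays, against 106.3 and 263.1 in wild-type cells, a difference of 2.06 (SE 0.52, adjusted p = 0.341 in limma). Rasa3 was at 1.41 without wild-type replicate 1 and at 2.72 without wild-type replicate 2. The exchange factor genes Sos1 and Sos2 differed by -0.50 and 1.25, both with overlapping groups. Sos1 was at -0.06 without deleted replicate 2, and Sos2 was at -0.10 without wild-type replicate 1. The exchange factor gene Rasgrp2, singled out after its values were seen, was even within the groups, with 166.0 and 166.7 in the deleted arrays, against 79.9 and 80.9 in wild-type cells. Its difference was 1.05 (SE 0.34, adjusted p = 0.436 in limma), and its 4 tested probe sets ranged from 0.75 to 1.59. Of 7 kinases that act below the MAP kinases 6 were higher (median 0.17), from Mapkapk3 at -0.50 to Rps6ka3, a ribosomal S6 kinase gene, at 0.92. Without deleted replicate 1 Mapkapk3 was at -0.22 and Rps6ka3 at 0.54. On their other tested probe set Mapkapk3 was at 0.19 and Rps6ka3 at 0.03.

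Among other inhibitors of the ERK cascade 7 of 10 tested genes had a lower mean, with a median of -0.41. Spry1, which encodes a Sprouty inhibitor of RAS and ERK signalling, read 16.5 and 11.0 in the deleted arrays, against 28.8 and 32.9 in wild-type cells, a difference of -1.19 (SE 0.34, adjusted p = 0.393 in limma). The deleted mean of Spry1 was 3.75 on the log2 scale, below the limit of 4, so it was tested only through its wild-type values, and with 16 added to every intensity the difference was -0.66. Rasal3, a RAS GTPase-activating protein gene of lymphocytes, was at 0.76 (SE 0.29, adjusted p = 0.516 in limma). The 12 tested transcriptional targets of ERK were split evenly, with 6 higher and 6 lower, a median of -0.02 and a range from -0.79 (Myc) to 0.51 (Srf, which was at -0.003 on its other tested probe set). Both genes at the ends of that range had overlapping groups. Srf was at 0.21 without deleted replicate 2 and at 0.22 without wild-type replicate 2, and Myc was at -0.20 without wild-type replicate 1 and at -0.44 without deleted replicate 2. Mcl1, which encodes a survival protein of the BCL2 family, was singled out after its values were seen. It read 5977 and 6507 in the deleted arrays, against 10630 and 9767 in wild-type cells, without overlap. Its difference was -0.71 (SE 0.17, adjusted p = 0.332 in limma), and its 6 tested probe sets ranged from -0.95 to -0.24. Of the other dual-specificity phosphatases 11 of 25 genes on the array were bright enough to test, 7 of them with a higher mean. Their median was 0.11 and their range ran from -0.84 (Cdc14a) to 0.85 (Dusp3). On these brightest probe sets and all 4 arrays, all were smaller in size than the differences of Dusp4, Dusp6 and Dusp1. That order did not hold throughout, since Styx ranged from 0.33 to 1.11 over its 3 tested probe sets. Dusp1 was at -0.32 without deleted replicate 2. Cdc14a was at -0.19 without wild-type replicate 2. Dusp3 was at 0.33 without wild-type replicate 1, at 0.42 without deleted replicate 1 and at 0.45 with 16 added to every intensity. The wild-type mean of Dusp3 was 3.77 on the log2 scale, below the limit of 4, so it was tested only through its deleted values. With log2 values below 4 raised to 4 its difference was 0.48.

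**Figure D4:**
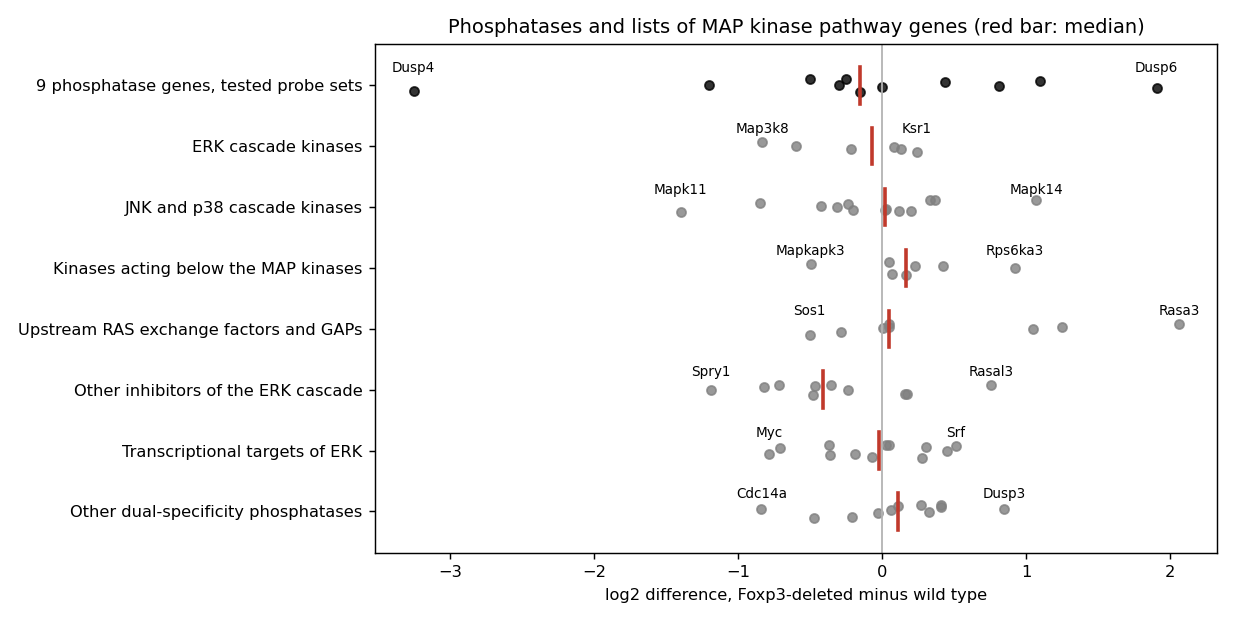
Log2 difference (deleted minus wild type) of the 11 tested phosphatase probe sets in the top line and, below it, of the tested genes of 7 lists, with 1 point per gene at its brightest probe set, red bars for medians and the outermost genes named. The list medians lie between -0.41 and 0.17, and Dusp4 at -3.25 and Rasa3 at 2.06 are the outermost points.

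Markers of other cell types were read beside these values. The summed intensity of 3 natural killer markers was 2580 and 1251 in the deleted arrays, against 494.1 and 500.0 in wild-type cells. It came mostly from Nkg7, while the defining marker Ncr1 stayed at the floor (5.05 to 5.22). Klra8 read 189.7 and 45.4 in the deleted arrays, against 88.6 and 50.6 in wild-type cells, so its groups overlapped. Of 6 B cell markers only Cd79b and Cd22 were above the floor on average, and their list summed to 106.9 and 141.5 in the deleted arrays, against 183.5 and 135.7 in wild-type cells. Within that list the 2 genes went opposite ways. Cd79b read 16.4 and 30.7 in the deleted arrays, against 95.5 and 89.7 in wild-type cells, and Cd22 read 57.9 and 80.6 in the deleted arrays, against 52.0 and 13.5 in wild-type cells. The myeloid markers Itgam, Cd14 and Cd68 had a mean below the floor limit, and Adgre1 was level on all 4 arrays (19.9 to 21.6). S100a8 read 4400 and 1547 in the deleted arrays, against 878.0 and 1214 in wild-type cells, and S100a9 read 3555 and 805.6 in the deleted arrays, against 820.7 and 722.5 in wild-type cells. Lyz2 read 828.0 and 79.0 in the deleted arrays, against 50.1 and 151.5 in wild-type cells, and Csf1r read 923.5 and 486.8 in the deleted arrays, against 533.2 and 314.2 in wild-type cells. Deleted replicate 1 was thus the highest array for these 4 genes, and only for S100a8 was deleted replicate 2 also above both wild-type arrays. Nkg7, Cd79b and Cd22 were singled out after their values were seen. The part of such cells in the phosphatase values was not tested, and in bulk RNA fewer cells with a transcript and less of it per cell cannot be told apart.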

How the data were processed

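Total RNA of 4 samples was hybridised to 1-colour oligonucleotide arrays, with 1 array for each sample. Per the labels' protocols the RNA came from Qiagen RNeasy columns and was amplified with the Ambion Message Amp II kit, with biotin as label. The authors deposited linear intensities, and the submitters' processing notes name GCRMA 1.1.3 as the tool. GCRMA corrects background by probe sequence, normalizes arrays to one another and summarises each probe set, and the dimmest probe sets collect at a floor. Of its settings nothing more is given in the sources used here. The median intensity per array lay between 8.38 and 8.94. The number of arrays limits the precision.

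Log2 values were taken with nothing added. Among the 45101 probe sets, 932 had several gene symbols, 9160 had none, and 64 were controls, and all these were left out. The 13999 whose log2 intensity averaged at least 4 were fitted per probe set with limma 3.58.1 in R 4.3.3 (lmFit, eBayes with a trend), two-sided, and p-values were adjusted over all of them by Benjamini-Hochberg, with 0.05 as the threshold. Residual degrees of freedom were 2, beside 3.06 from the prior. Standard errors and 95% intervals are limma's moderated ones. Genes of the pathway lists were represented by their brightest tested probe set.

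The members, the lists and the naming rule were chosen with earlier results of these data known. That rule took all member probe sets, Foxp3, the outermost genes of each list (up to 2 of each sign) and the 3 genes nearest in pattern to the members of highest and lowest difference. The motifs were chosen after the values were seen. Alternatives covered the filter, the floor, a pseudocount, centring, quantile normalization, the prior, a replicate block, 1 probe set per gene and leaving out each array. The fit was also run on simulated data with known changes, and no result here draws on the outcome. Tables and plots were made with Python 3.11.15, pandas 2.3.3 and matplotlib 3.10.9.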

Additional observations from a re-analysis of the deposited data

How the results depend on the processing

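Of 148 differences of the 11 tested phosphatase probe sets under the alternatives, 140 kept their direction and their side of the threshold, and 8 turned sign. Dusp10 turned with centring on the array median (-0.0198) and with quantile normalization (-0.0341). The other reversals came from leaving out 1 array, which gave ranges of -0.0193 to 0.0193 for Dusp10 (below 0 without deleted replicate 1 and, at -0.0104, without wild-type replicate 1), -0.54 to 0.0372 for Dusp2 (above 0 without deleted replicate 2), -0.788 to 0.19 for Dusp16 (above 0 without wild-type replicate 2) and -0.832 to 0.52 for Dusp11 on 1452594_at (above 0 without deleted replicate 2 and, at 0.38, without wild-type replicate 1). Among the other named genes the ranges were -0.49 to 0.97 for Ksr1 (also -0.25 without deleted replicate 2) and -0.097 to 2.59 for Sos2. For the count of all probe sets past an adjusted p of 0.05, the stricter filter (mean log2 of at least 6) gave 18, where 8902 probe sets were tested, and centring gave 28, against 0 otherwise. Nrp1 was among those called in both, with an adjusted p in limma of 0.0412 and 0.0450, against 0.0956 in the main fit. No phosphatase probe set passed under any alternative, and the lowest adjusted p was 0.0539, for Dusp4 with centring, in a range of 0.0539 to 0.748. The count of phosphatase probe sets with a difference of at least 1 and no overlap was 2 with the stricter filter, which leaves out Dusp4 and 1452097_a_at, and 2 to 5 when single arrays were left out. The replicate block, which pairs samples by number, called 0 probe sets and gave Dusp4 an adjusted p = 0.367. The deviations of same-numbered arrays correlated at -0.27 across probe sets, and with the numbers crossed, an alternative chosen after seeing the data, 0 were called.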
